A study of Mus musculus with 70 samples.

Results

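The 43 genes described here are known targets of type I interferon, chosen by name and matched to the 52636 genes of the count table by their GENCODE M21 symbols. All 43 were found. They were followed in 68 of 70 RNA-seq libraries of leukocytes sorted from mouse blood. The mice were young adult male C57BL/6J mice without transgenes. Control (CON) mice were unstressed and housed in pairs, while the other mice went through chronic social defeat stress (CSDS) for 10 days, in which a larger CD-1 aggressor attacks and then faces the mouse across a divider. Stressed mice were split by a social interaction test into susceptible (SUS) mice, which avoided the aggressor, and resilient (RES) mice, which did not. Cells were sorted on CD11b, Ly6C, Ly6G, B220 and CD90.2. SUS and RES mice went through the same stress and differ by the test that named them. Ly6C high monocytes had 6 libraries in each group. Ly6C low monocytes had 4 CON, 6 SUS and 6 RES libraries, and B cells and T cells each had 6 CON, 6 SUS and 5 RES libraries after 2 libraries were left out.

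Type I interferons are secreted proteins that signal through a shared receptor made of IFNAR1 and IFNAR2. The receptor activates the kinases JAK1 and TYK2, which phosphorylate STAT2, and this joins IRF9 in a complex that binds a DNA element in the promoters of target genes. The products include sensors of viral nucleic acid, IFIT proteins that bind viral RNA, OAS proteins that make a messenger for RNA decay, Mx and guanylate-binding GTPases, the ubiquitin-like protein ISG15, and the factors STAT2, IRF9 and IRF7, which keep the response going. Ly6C high monocytes are the inflammatory monocytes of mouse blood, and Ly6C low monocytes are the patrolling cells that derive from them.

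The bound element, known as the interferon-stimulated response element (ISRE) and written here as GAAA, any 2 bases and GAAA again, was looked for on both strands of the promoters in the RefSeq table of GRCm38.p6, from 250 bases before to 50 bases after each start. Of the 43 members, 32 had a promoter in the table. A match was present in 17 of these 32 promoters (53.1%) and in 1079 of 27025 genes of the table (3.99%). The STAT dimer motif TTCNNNGAA, which can overlap the first, was present in 7 of the 32 member promoters (21.9%) and in 9.55% of all genes of the table. The stretches below are shown because their genes carry the monocyte results: 3 IFIT genes that fell in SUS mice, Stat2, which did not pass the test, and Isg15 and Oas1a, which did not pass it either and were chosen for display after their values were seen. Capitals mark the ISRE matches, with TTTC in place of GAAA where the match is on the other strand, and each is written 5′ to 3′ on the strand of its gene.
Ifit1 (chr19:34640760-34640838, plus strand): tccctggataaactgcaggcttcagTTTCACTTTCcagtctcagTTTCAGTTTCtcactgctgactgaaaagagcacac
Ifit3 (chr19:34583348-34583441, plus strand): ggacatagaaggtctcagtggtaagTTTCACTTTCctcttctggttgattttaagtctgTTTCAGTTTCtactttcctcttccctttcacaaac
Ifit3b (chr19:34607744-34607837, plus strand): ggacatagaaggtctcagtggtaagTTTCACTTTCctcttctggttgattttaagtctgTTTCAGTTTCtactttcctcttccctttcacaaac
Stat2 (chr10:128270251-128270310, plus strand): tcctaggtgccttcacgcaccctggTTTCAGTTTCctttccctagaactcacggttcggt
Isg15 (chr4:156200850-156200921, minus strand): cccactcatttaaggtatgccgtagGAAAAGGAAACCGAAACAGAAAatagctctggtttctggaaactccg
Oas1a (chr5:120907526-120907570, minus strand): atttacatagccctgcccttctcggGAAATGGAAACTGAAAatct
The stretches of Ifit3 and Ifit3b are identical over all 94 bases. The sensor genes Ddx58 and Ifih1 and the kinase gene Eif2ak2 held their matches just after the start, as TTTCGATTTC, GAAACAGAAA and GAAAACGAAA respectively. Matches were thus present both in genes that fell in SUS mice and in genes that did not, and a match is a description of letters, not a bound site.

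Levels are counts per 1000000 counts of a library (CPM) after TMM scaling of all 68 libraries, and differences are log2 fold changes from edgeR's quasi-likelihood F test, with standard errors and with Benjamini-Hochberg adjustment of p over all genes tested in the cell type. Total counts per library ranged from 19769835 to 67038231 with a median of 37105583.5, and no pair of libraries held identical counts. The labelled cell types carried their markers, as Cd79a stood at 1167 to 1884 CPM in B cells, Cd3e at 372 to 530 CPM in T cells, and Ly6c2 at 244 to 904 CPM in Ly6C high against 0.143 to 2.66 CPM in Ly6C low monocytes. The labels give brain as the source, while the study's design and methods describe blood. Library 52, labelled as B cells of RES mice, had 412.4 CPM of Cd3e and 5.756 CPM of Cd79a, and library 70, labelled as T cells of RES mice, had Cd79a at 1417 CPM with Cd3e at 0.1434 CPM. Both went against their labels and were left out, and the results that rest on RES lymphocytes are also given with them. The Ly6C low gate also held NK cell transcripts, whose 5 markers summed to 230 to 1190 CPM against 0.0301 to 34.9 CPM in the Ly6C high gate. The labels name no mouse, so the 4 cell types cannot be paired, and p-values measure the spread between these libraries.

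Without stress, the type I interferon genes were most expressed in Ly6C high monocytes and lower in Ly6C low monocytes. Per kilobase of exon, 39 of the 43 members had their highest mean CPM in Ly6C high monocytes, while T cells were highest for the GTPase genes Gbp2, Gbp7 and Ifi47, and B cells for Samd9l, a restriction factor that blocks translation. Samd9l stood at 61.3 ± 46.2 CPM per kilobase in B cells and 45.3 ± 13.5 in Ly6C high monocytes (SD, n = 6). The higher B cell mean rested on a library at 837.93 CPM, against a median of 246.15 CPM over the 6. The most expressed members in Ly6C high monocytes were Ifi27l2a, a small interferon-induced membrane protein gene, at 208 ± 25.5 CPM per kilobase (SD, n = 6), and the DNA sensor gene Ifi204 at 121 ± 22.3. They were followed by Slfn5 at 108 ± 19.8 and Irf7, the factor that amplifies interferon production, at 67.7 ± 4.5 CPM per kilobase. These levels overlap within their spread for Ifi204 and Slfn5, and the least expressed member was Ifi44 at 0.40 CPM per kilobase.

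**Figure D1:**
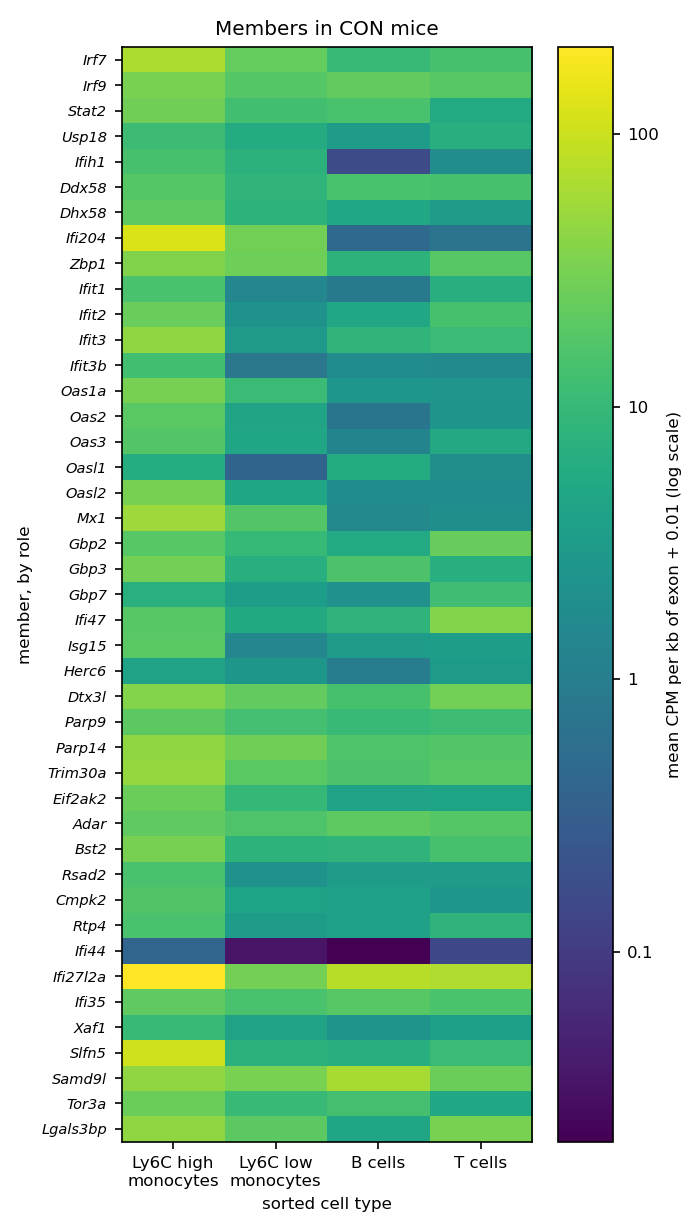
Heat map of the mean level of each of the 43 members (rows, by role) in CON mice of the 4 cell types (columns), with colour for CPM per kilobase of exon plus 0.01 on a log scale. Ly6C high monocytes hold the highest value for 39 members, and B cells the lowest for 21.

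In CON mice, 30 of 43 members were lower in Ly6C low than in Ly6C high monocytes at an adjusted p under 0.05 and a change of over 1 on the log2 scale, against 4.46% of all 21032 genes tested. By adjusted p alone the count was 37, against 9.1% of all genes. No member was higher by either rule or at an unadjusted p under 0.05, nor by DESeq2, and all 43 log2 fold changes were negative, with a median of -1.48 against 0.04 for all genes. The lowest ratios among called members were those of the OAS-like gene Oasl1 at -4.03, Ifit3b at -4.02, Ifit3 at -3.93 and Slfn5 at -3.82 on the log2 scale. The NK cell transcripts in the Ly6C low gate stand beside these differences, and their part in them was not tested.

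Ly6C low monocytes of CON mice had the lowest level of the 4 cell types for 15 members, and their mean log2 CPM over the list was 4.58, beside 4.65 in T cells. With the mean of both monocyte types set against the mean of both lymphocyte types, 17 members were higher in monocytes by both criteria, against 18.2% of all genes, and 1 was lower, against 14% of all genes. The monocyte side was led by Ifi204 at 6.71, the RNA sensor gene Ifih1 at 4.27, Mx1 at 4.12 and Oas1a at 2.88 on the log2 scale, and the member on the lymphocyte side was Oasl1 at -1.10. The 2 monocyte types differed for Oasl1, at 6.24 CPM per kilobase in Ly6C high and 0.38 in Ly6C low monocytes. B cells had 5.87 and T cells 1.92 CPM per kilobase. Between B and T cells, 5 members were higher in B cells, against 8.98% of all genes, and 15 in T cells, against 11.2%. Higher in B cells were Oasl1 at 1.58, Tor3a at 1.43, Stat2 at 1.27, Samd9l at 1.20 and Gbp3 at 1.15. The value of Samd9l includes the B cell library at 837.93 CPM. The largest differences towards T cells were those of Ifi44 at -3.74, Ifih1 at -3.58, Ifit1 at -3.06 and Lgals3bp at -2.84. The value of Ifi44 rests on very low counts, at 0.01 CPM per kilobase in B cells and 0.14 in T cells, and its SE was 1.34.

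In Ly6C high monocytes, SUS mice had less RNA of all 4 IFIT genes, of Mx1, Samd9l, Herc6 and Parp14, of the RNA sensors Ddx58 and Ifih1 and of the kinase gene Eif2ak2 than CON mice. By adjusted p and a change of over 1 on the log2 scale, 6 of 43 members fell, against 1.17% of 16955 genes, and 0 rose by edgeR or DESeq2, against 2.28% of all genes. By adjusted p alone 11 members fell, against 3.84% of all genes, and 0 rose, against 8.78%. At an unadjusted p under 0.05, 14 were lower and 3 higher, against 10.7% and 15.9% of all genes. The groups did not overlap for 7 members, all lower in SUS mice, against 2.28% of all genes: Samd9l, Mx1, Parp14, Ifit2, Ifit3b, Ifih1 and Ifit3. For 0 members did they lie apart with SUS mice higher, against 4.68% of all genes. The median log2 fold change over the 43 members was -0.12, against -0.05 over all genes, and 18 members had a positive value. SUS library 8 was the lowest of its group for 24 members, and without it 4 members were called by both criteria. Without SUS library 14, the highest for 31 members, the median of the members was -0.42 with 38 of 43 negative. With a covariate for red cell transcripts that median was -0.58 with 41 of 43 negative. By adjusted p alone, 0 members were called with that covariate and 2 with offsets for GC content and exon length. In bulk RNA, fewer cells of a type within the gate and less RNA per cell cannot be told apart.

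**Figure D2:**
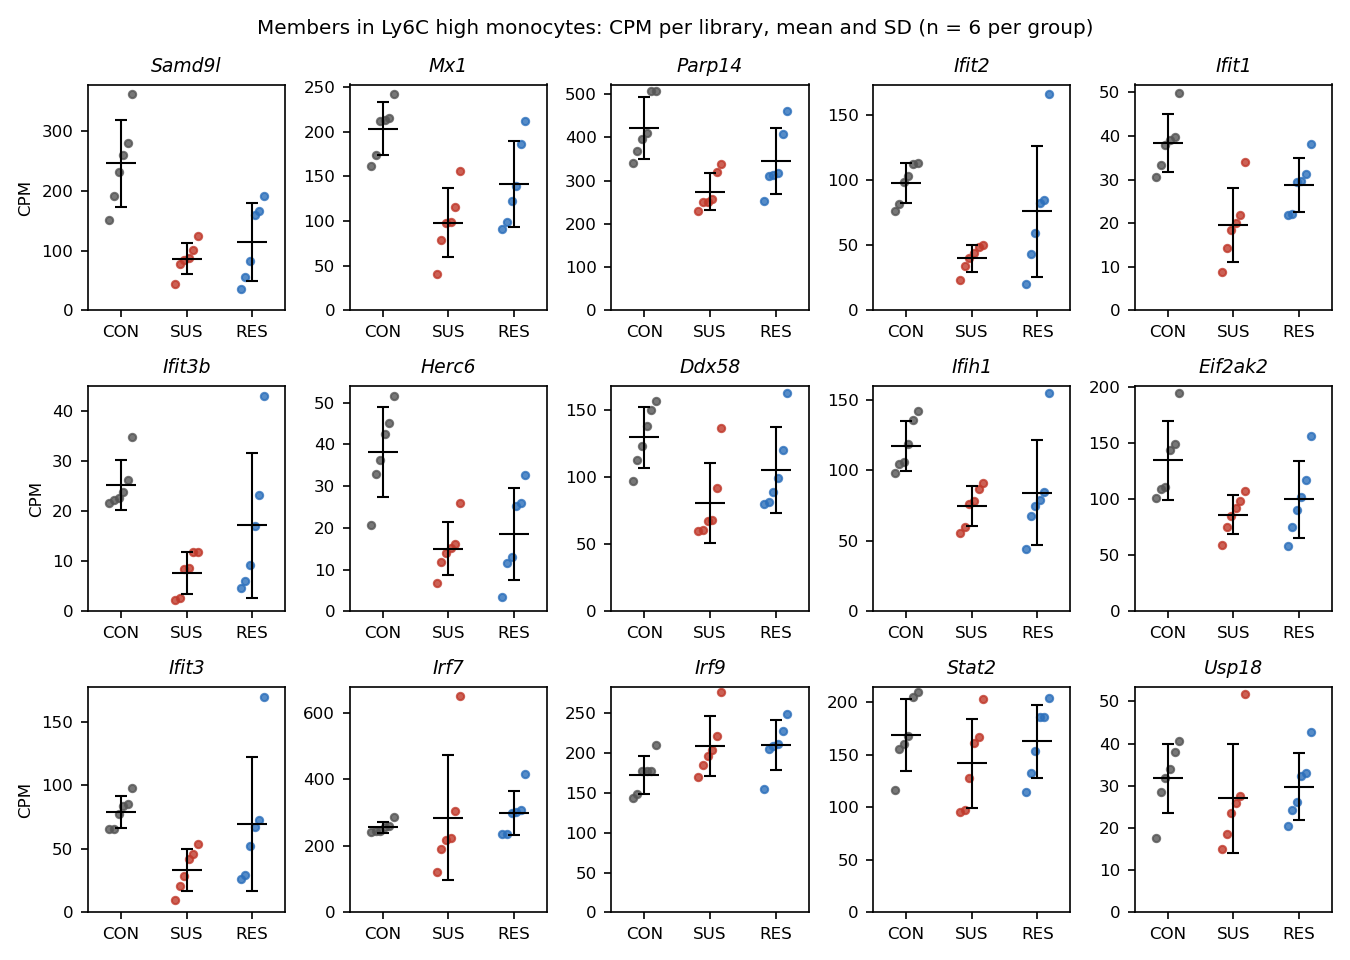
CPM of the 11 called members and of Irf7, Irf9, Stat2 and Usp18 (y axes, from 0) in each Ly6C high monocyte library of CON, SUS and RES mice (x axes), with a point per library and bars for the mean and SD (n = 6 each). For Samd9l, Mx1, Parp14, Ifit2, Ifit3, Ifit3b and Ifih1 every SUS point lies below every CON point, while the SUS points of Irf7 spread from 122.96 to 651.69 CPM, to both sides of the CON points.

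The IFIT genes lie side by side on chromosome 19, at chr19:34550694-34576419 for Ifit2, chr19:34583531-34588731 for Ifit3, chr19:34607970-34613401 for Ifit3b and chr19:34640871-34650009 for Ifit1, all in GRCm38. Their proteins bind viral RNA and block its translation. Ifit2 had a lowest, median and highest level of 76.097, 100.96 and 112.81 CPM in CON mice, 23.098, 42.062 and 50.468 CPM in SUS mice, and 20.525, 70.648 and 165.85 CPM in RES mice. Every SUS library lay below every CON library, while RES libraries spread from below to above both. Ifit2 fell by 1.31 ± 0.31 on the log2 scale (SE) in SUS against CON mice, with an adjusted p of 0.00782 in edgeR's quasi-likelihood F test. Ifit3 had 65.336, 80.607 and 98.065 CPM in CON mice, 9.5097, 35.513 and 54.141 CPM in SUS mice, and 26.614, 59.716 and 169.93 CPM in RES mice. Again the SUS and CON groups did not overlap and the RES group covered both. Ifit3 fell by 1.27 ± 0.39 with an adjusted p of 0.0356.

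Ifit3b, a near copy of Ifit3, had 21.67, 23.193 and 34.866 CPM in CON mice, 2.3277, 8.6162 and 11.871 CPM in SUS mice, and 4.6882, 13.107 and 43 CPM in RES mice. It fell by 1.75 ± 0.46 with an adjusted p of 0.0139, the largest called fall among the members. Because 51.2% of the 50-base stretches of Ifit3 and 45% of those of Ifit3b also occur elsewhere in transcripts, the counts of each are uncertain. Ifit1 had 30.529, 38.478 and 49.752 CPM in CON mice, 8.7479, 19.189 and 34.077 CPM in SUS mice, and 21.803, 29.631 and 38.066 CPM in RES mice. Its SUS and CON groups overlapped through the highest SUS library, and it fell by 0.99 ± 0.24 with an adjusted p of 0.00967, just inside a change of 1 on the log2 scale and so not counted by the stricter rule.

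Mx1 encodes a GTPase that traps viral nucleoproteins, of which C57BL/6J mice carry a defective allele, and lies at chr16:97447035-97462907. It had a lowest, median and highest level of 162.21, 212.97 and 242.82 CPM in CON mice, 40.275, 98.388 and 156.43 CPM in SUS mice, and 91.522, 130.9 and 211.94 CPM in RES mice. All SUS libraries lay below all CON libraries. Mx1 fell by 1.08 ± 0.24 on the log2 scale with an adjusted p of 0.00535. The other 4 GTPase genes, Gbp2, Gbp3, Gbp7 and Ifi47, did not pass the test, and the 5 GTPase genes together spanned log2 fold changes from -1.08 to 0.23.

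Samd9l (chr6:3372257-3399572) had 151.79, 245.34 and 361.21 CPM in CON mice, 44.533, 86.132 and 124.72 CPM in SUS mice, and 35.46, 120.48 and 190.83 CPM in RES mice. It had the smallest adjusted p of the members, 0.00398, with a fall of 1.54 ± 0.32. Herc6, an ISG15 ligase in the mouse, had 20.678, 39.475 and 51.713 CPM in CON mice, 6.7793, 14.673 and 25.964 CPM in SUS mice, and 3.3446, 19.062 and 32.749 CPM in RES mice. It fell by 1.38 ± 0.37 with an adjusted p of 0.0166, and 23.8% of its 50-base stretches are shared with another gene model. Parp14, an ADP-ribosyltransferase, had 339.84, 402.99 and 508.1 CPM in CON mice, 230.64, 254.21 and 338.95 CPM in SUS mice, and 252.31, 315.59 and 461.76 CPM in RES mice. The SUS and CON groups almost touched, and Parp14 fell by 0.65 ± 0.15 with an adjusted p of 0.00664. The remaining 4 genes of the ISG15, ubiquitin and ADP-ribose group, Isg15, Dtx3l, Parp9 and Trim30a, did not pass the test.

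Among the sensors of viral nucleic acid, both genes that signal to interferon from RNA fell. Ddx58, which encodes RIG-I, had a lowest, median and highest level of 97.016, 130.71 and 156.73 CPM in CON mice, 60.001, 67.713 and 136.64 CPM in SUS mice, and 79.814, 93.822 and 162.6 CPM in RES mice. It fell by 0.71 ± 0.21 on the log2 scale with an adjusted p of 0.0279. Ifih1, which encodes MDA5, had 97.978, 112.29 and 141.79 CPM in CON mice, 55.488, 77.493 and 90.739 CPM in SUS mice, and 44.052, 76.971 and 154.69 CPM in RES mice. The SUS and CON groups did not overlap for Ifih1, which fell by 0.69 ± 0.21 with an adjusted p of 0.0312. Dhx58, Ifi204 and Zbp1 did not pass the test, and Zbp1 had a log2 fold change of 0.55 with an adjusted p of 0.185. Eif2ak2, which encodes the RNA-activated kinase PKR, had 101.07, 127.36 and 194.94 CPM in CON mice, 59.387, 88.98 and 107.53 CPM in SUS mice, and 58.202, 96.096 and 157.01 CPM in RES mice. It fell by 0.68 ± 0.21 with an adjusted p of 0.0321, while the RNA editor gene Adar did not pass the test.

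The factors that carry the response did not pass the test in Ly6C high monocytes of SUS mice. Irf7 had 240.39, 250.87 and 286.4 CPM in CON mice, 122.96, 220.82 and 651.69 CPM in SUS mice, and 234.74, 300.34 and 416.88 CPM in RES mice. The SUS libraries of Irf7 lay on both sides of the CON group, its log2 fold change was 0.15 ± 0.26 with an adjusted p of 0.779, and its sign turned to -0.33 without SUS library 14. Irf9 had 143.46, 177.61 and 209.8 CPM in CON mice, 169.7, 200.04 and 276.99 CPM in SUS mice, and 155.12, 210.18 and 249.38 CPM in RES mice, with a log2 fold change of 0.25 ± 0.14 and an adjusted p of 0.26. Stat2 had 116.51, 164.06 and 209.19 CPM in CON mice, 95.834, 144.55 and 202.63 CPM in SUS mice, and 114.56, 169.73 and 203.73 CPM in RES mice, with -0.27 ± 0.19 and an adjusted p of 0.381. The 3 groups overlapped for both genes. Usp18, which removes ISG15 and restrains the receptor, had 17.742, 32.843 and 40.609 CPM in CON mice, 15.137, 24.714 and 51.674 CPM in SUS mice, and 20.582, 29.164 and 42.669 CPM in RES mice, with -0.25 ± 0.26 and an adjusted p of 0.587. The exons of Irf7 overlap those of Phrf1, and those of Irf9 overlap Rnf31, so counts of both depend on how shared reads were assigned.

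The 5 OAS genes also did not pass the test, and spanned log2 fold changes from -0.30 to 0.82. Oas1a had 49.722, 57.765 and 66.999 CPM in CON mice, 49.023, 74.154 and 261.41 CPM in SUS mice, and 58.631, 85.653 and 123.01 CPM in RES mice, with a log2 fold change of 0.82 and an adjusted p of 0.0682. The highest SUS library stood far above the rest, and 57.6% of the 50-base stretches of Oas1a are shared with other transcripts. Isg15 had 11.866, 15.035 and 17.045 CPM in CON mice, 7.6717, 11.111 and 43.659 CPM in SUS mice, and 11.035, 15.635 and 28.198 CPM in RES mice, with 0.15 and an adjusted p of 0.824. Its SUS range was wider than its CON range at both ends. The membrane, lipid and nucleotide effectors, Rsad2, Bst2, Rtp4 and Cmpk2, did not pass the test either, and the nearest to it was Cmpk2 at -0.64 with an adjusted p of 0.0574. Of the other 8 members Samd9l alone was called. Ifi44 had the lowest log2 fold change of all, -2.97, at an adjusted p of 0.176, but its median CON level was only 2.0894 CPM.

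Single libraries set much of the spread in the stressed groups. SUS library 14 was the highest of its group for 31 of 43 members and SUS library 8 the lowest for 24. Among RES libraries, library 6 was the highest for 35 members and library 15 the lowest for 24. The mean log2 CPM over the 43 members was 6.36 ± 0.17 (SD, n = 6) for CON mice, 6.01 ± 0.40 for SUS mice and 6.23 ± 0.37 for RES mice, with ranges that overlapped. Without SUS library 14, 6 members were called by both criteria and 9 by adjusted p alone. The count by adjusted p alone was 7 without CON library 1, 4 or 16. Without each of the 18 libraries in turn, 7 members passed in every fit: Ifit1, Ifit2, Ifit3b, Mx1, Herc6, Parp14 and Samd9l. Ifit3 failed in 8 of the 18 fits, Ifih1 in 7, Ddx58 in 6 and Eif2ak2 in 5.

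RES mice were compared with the same CON libraries. In Ly6C high monocytes of RES mice, Samd9l fell by 1.10 ± 0.32 on the log2 scale with an adjusted p of 0.0482, and was the sole member called by either rule, against 0.466% of all genes lower by both criteria and 1.26% by adjusted p alone. It failed without CON library 1 and in 11 other fits that left out 1 library. No member rose in the main edgeR fit or by DESeq2, against 0.531% of all genes by both criteria and 3.71% by adjusted p alone. In an edgeR fit of only the 2 groups, Oas1a, with the higher median in RES mice, passed by adjusted p alone. At an unadjusted p under 0.05 in the main fit, 6 were lower and 0 higher, against 8.54% and 12.7% of all genes. The median log2 fold change was 0.00 against -0.03 over all genes. The RES and CON groups overlapped for every member, while they lay apart for 1.57% of all genes with RES mice lower and 2.85% with RES mice higher. For the 4 factors, RES against CON gave 0.22 for Irf7, 0.27 for Irf9, -0.07 for Stat2 and -0.10 for Usp18. IFIT genes lay between -0.56 and -0.19, beside -1.75 to -0.99 for SUS against CON mice, and both ranges rest on the same CON libraries.

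Between SUS and RES mice, edgeR and DESeq2 called 0 members by adjusted p in Ly6C high monocytes, against 0.0059% of all genes lower and 0% higher by edgeR. At an unadjusted p under 0.05, 7 members were lower in SUS mice and 0 higher, against 1.79% of all genes lower and 1.86% higher. Log2 fold changes were negative for 35 of 43 members, against 48.1% of all genes, with a median of -0.11 against 0.01. The IFIT genes Ifit2, Ifit3 and Ifit3b had -0.94, -1.07 and -1.19, each with an adjusted p of 0.999. A difference between susceptible and resilient mice was therefore not detected for any member at this number of libraries.

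Some measures of the Ly6C high libraries moved with the groups. The 6 red cell transcripts summed to a lowest, median and highest level of 343, 608 and 1220 CPM in CON mice, 1100, 1680 and 8990 CPM in SUS mice, and 1080, 1850 and 4350 CPM in RES mice. With the red cell level as a covariate, 0 members and 1 of 16955 genes were called by edgeR in SUS against CON mice. In that fit 20 members were lower at an unadjusted p under 0.05. The 6 conventional dendritic cell markers summed to 151 to 186 CPM in CON mice, 64.5 to 119 CPM in SUS mice and 103 to 169 CPM in RES mice. Plasmacytoid dendritic cells are a main source of type I interferon. Their 6 markers summed to 2.97 to 9.09 CPM in CON, 0.422 to 3.22 CPM in SUS and 1.06 to 4.0 CPM in RES mice. These are low levels, as 2 of the 6 reached a mean of 1 CPM in CON and 1 in SUS and in RES mice. The sum is also not particular to these cells, as it was 105 to 149 CPM in T cells of CON mice. Granule progenitor markers summed to 3.74 to 31.8 CPM in CON, 12.1 to 143 CPM in SUS and 20.1 to 83.5 CPM in RES mice. The part of these transcripts in the falls of the members was not tested. The red cell level of CON mice hardly overlapped that of stressed mice, so its covariate cannot tell red cell level and stress apart.

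Members that fell in SUS mice had a lower median GC content, though other members lay in the same range. GC content, taken over all annotated transcripts of a gene, had a median of 44.41% (range 39 to 47.94%) over the 11 members called lower in SUS mice, 49.91% (39.67 to 56.89%) over the other 32, and 49.4% over all genes tested. The median exon length was 5113 bases over the 11, 3834 over the 32 and 3361 over all genes tested. Across the 43 members, the log2 fold change of SUS against CON mice and the GC content had a Spearman rho of 0.688, beside 0.308 across 16919 genes, and exon length had -0.383 beside -0.109. For RES against CON mice, where 1 member was called, the rho with GC content was 0.72 across the members and 0.327 across all genes. These correlations are across genes of the same libraries and are given as descriptions. With a per-gene offset for GC content and exon length, chosen after the data were seen, 1 member passed both criteria in SUS against CON mice, Mx1, and 2 passed by adjusted p alone, Mx1 and Samd9l. In that fit the median of the members was 0.02 and the median of all genes 0.09 on the log2 scale.

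**Figure D3:**
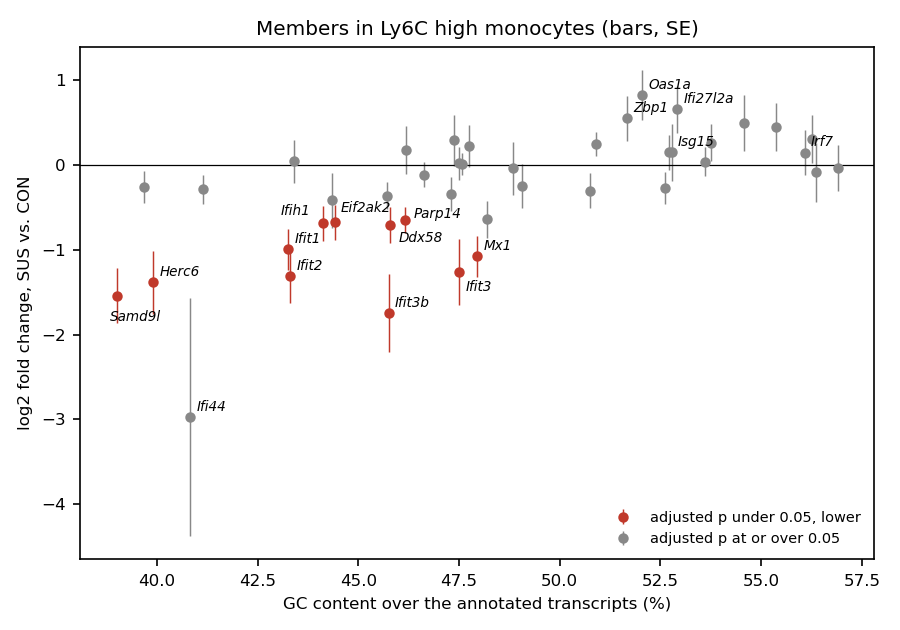
Log2 fold change of SUS against CON mice in Ly6C high monocytes (y axis) against GC content in percent (x axis), with a point and SE bar for each member and the members called by adjusted p in red. The 11 called members lie between 39 and 47.94% GC, while the other 32 span 39.67 to 56.89%.

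The other 3 cell types gave no called member by edgeR. In Ly6C low monocytes of SUS against CON mice, edgeR and DESeq2 called 0 of 43 members, against 0.159% of all genes higher and 0.082% lower by adjusted p and 0.0512% and 0.0359% by both criteria. At an unadjusted p under 0.05, 2 were higher and 1 lower, against 5.32% and 4.19% of all genes. Rsad2, which encodes the antiviral radical enzyme viperin, had 7.9797, 10.095, 10.423 and 11.048 CPM in the 4 CON libraries and a lowest, median and highest level of 13.618, 19.256 and 64.616 CPM in SUS mice. All SUS libraries were above all CON libraries, as held for 1.13% of all genes, and the log2 fold change was 1.51 ± 0.57 with an adjusted p of 0.383. The chaperone gene Rtp4 had 0.90 and Samd9l -0.49. Log2 fold changes were positive for 33 of 43 members, against 49.2% of all genes, with a median of 0.20 for SUS mice, and for 22 of 43 with a median of 0.01 for RES mice. SUS library 30 was the highest of its group for 37 members. Its mean log2 CPM over the members was 5.61, beside group medians of 4.63 for SUS and 4.57 for CON mice. In RES against CON mice 0 members were called by either tool, against 0.0154% of all genes higher and 0.0102% lower, with 0 higher and 1 lower at an unadjusted p under 0.05, against 5.61% and 4.06%. In SUS against RES mice 0 were called by either tool, against 0% of all genes, with 1 higher and 0 lower at an unadjusted p under 0.05, against 1.8% and 1.99%.

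In B cells most members had higher values in stressed mice, none past the test. Ifi44 was too low to be tested, so 42 members were fitted. In SUS against CON mice edgeR called 0 members, against 0.00568% of all genes higher and 0% lower. At an unadjusted p under 0.05, 8 members were higher and 0 lower, against 1.99% of all genes higher and 1.43% lower. Positive values were found for 40 of 42 members, against 49.8% of all genes, with a median log2 fold change of 0.28 against 0.00. Rsad2 had 7.9573, 13.151 and 24.262 CPM in CON mice, 22.306, 38.667 and 179.16 CPM in SUS mice, and 14.456, 18.205, 25.708, 45.372 and 81.408 CPM in the 5 RES libraries. Its highest CON library lay just above its lowest SUS library, its log2 fold change was 2.09 ± 0.54, and its adjusted p was 0.755 by edgeR, while DESeq2 called it. Oas2, which makes the messenger for RNA decay, had 1.31 ± 0.41 with an adjusted p of 0.999. In RES against CON mice, 0 members were called by either tool, against 0% of all genes, 8 were higher at an unadjusted p under 0.05 and 0 lower, against 1.8% and 1.37% of all genes, and the median was 0.38. The 5 NK cell markers summed to 1.77 to 4.6 CPM in B cell libraries of CON mice, 11.2 to 32.4 CPM in those of SUS mice and 5.71 to 22.2 CPM in those of RES mice, and their part in the higher values was not tested. With library 52 kept, the B cell median for RES mice was 0.56 with 12 higher at an unadjusted p under 0.05. SUS against RES mice gave 0 members by either tool, against 0% of all genes, and 0 at an unadjusted p under 0.05, against 0.636% higher and 0.726% lower.

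T cells had the same sign over most of the list. In SUS against CON mice edgeR called 0 of 43 members, against 0.0371% of all genes higher and 0.0053% lower by adjusted p and 0.0265% and 0% by both criteria. At an unadjusted p under 0.05, 13 members were higher and 0 lower, against 2.76% of all genes higher and 2.05% lower. Ifit3b had 1.7707, 2.3474 and 6.3984 CPM in CON mice, 3.62, 9.8025 and 17.43 CPM in SUS mice, and 4.9189, 5.741, 6.3127, 11.414 and 14.614 CPM in the 5 RES libraries. Its SUS values were mostly above the CON values, with a log2 fold change of 1.65 ± 0.39 and an adjusted p of 0.162. The nucleic acid sensor gene Zbp1 had 55.104, 66.287 and 79.558 CPM in CON mice, 72.761, 99.028 and 117.3 CPM in SUS mice, and 62.524, 86.208, 90.787, 110.02 and 113.35 CPM in RES mice, with 0.55 ± 0.13 and an adjusted p of 0.167. Isg15 had 1.3752, 2.0077 and 6.0315 CPM in CON mice, 3.7044, 6.8225 and 13.821 CPM in SUS mice, and 3.7087, 4.464, 5.1594, 8.4998 and 16.114 CPM in RES mice, with 1.49 ± 0.40 and an adjusted p of 0.263. DESeq2 called Ifit3b and Zbp1. Positive values were found for 39 of 43 members with a median of 0.29 in SUS mice, and for 41 of 43 with a median of 0.38 in RES mice. RES against CON mice gave 0 called members by either tool, against 0% of all genes, with 13 higher and 0 lower at an unadjusted p under 0.05, against 2.4% of all genes higher and 1.71% lower. With library 70 kept, the T cell median for RES mice was 0.32. SUS against RES mice gave 0 members by either tool, against 0% of all genes, and 0 at an unadjusted p under 0.05, against 1.22% higher and 1.17% lower.

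Irf7, Irf9, Stat2 and Usp18 were followed in every cell type. In Ly6C low monocytes, Irf7 had 64.524, 74.659, 89.402 and 130.17 CPM in CON mice and a lowest, median and highest level of 72.705, 90.352 and 190.48 CPM in SUS and 82.855, 92.195 and 114.47 CPM in RES mice. In B cells it had 28.442, 41.665 and 44.486 CPM in CON and 34.027, 52.464 and 117.23 CPM in SUS mice, and 27.702, 36.16, 44.24, 64.535 and 89.31 CPM in the RES libraries. In T cells it had 40.52, 51.61 and 66.917 CPM in CON and 59.153, 82.653 and 106.38 CPM in SUS mice, and 53.303, 62.808, 66.641, 110.74 and 118.1 CPM in the RES libraries. The groups overlapped in each of these cell types. The log2 fold change of Irf7 in SUS against CON mice was 0.26 ± 0.25 in Ly6C low monocytes (adjusted p = 0.861), 0.67 ± 0.28 in B cells (0.999) and 0.62 ± 0.20 in T cells (0.533), and in RES against CON mice it was 0.04, 0.41 and 0.63.

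Irf9 had 85.403, 91.844, 101.81 and 109.89 CPM in the CON libraries of Ly6C low monocytes, and SUS and RES medians of 104.76 and 102.15 CPM. Its CON, SUS and RES medians were 121.85, 129.66 and 121.89 CPM in B cells and 100.96, 114.74 and 111.97 CPM in T cells. Its log2 fold changes in these 3 cell types lay between 0.11 and 0.21 for SUS mice and between 0.08 and 0.13 for RES mice. The groups of Irf9 overlapped in all 3 cell types. The SUS and RES medians of Stat2 were 71.002 and 59.686 CPM in Ly6C low monocytes, beside CON libraries at 60.234, 64.949, 74.434 and 101.28 CPM. Its medians were 87.183, 91.808 and 104.28 CPM in B cells and 32.557, 44.25 and 39.418 CPM in T cells of CON, SUS and RES mice. The largest Stat2 value was that of T cells of SUS mice, 0.41 ± 0.15 with an adjusted p of 0.709. Usp18 had medians of 8.8963, 14.875 and 15.242 CPM in B cells and 18.444, 21.387 and 24.793 CPM in T cells, and in Ly6C low monocytes 14.29, 15.333, 16.045 and 20.34 CPM in the CON libraries, with SUS and RES medians of 12.565 and 11.273 CPM. Its log2 fold change for SUS mice was -0.35 ± 0.21 in Ly6C low monocytes (adjusted p = 0.651), 0.65 ± 0.26 in B cells (0.999) and 0.23 ± 0.21 in T cells (0.999).

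**Figure D4:**
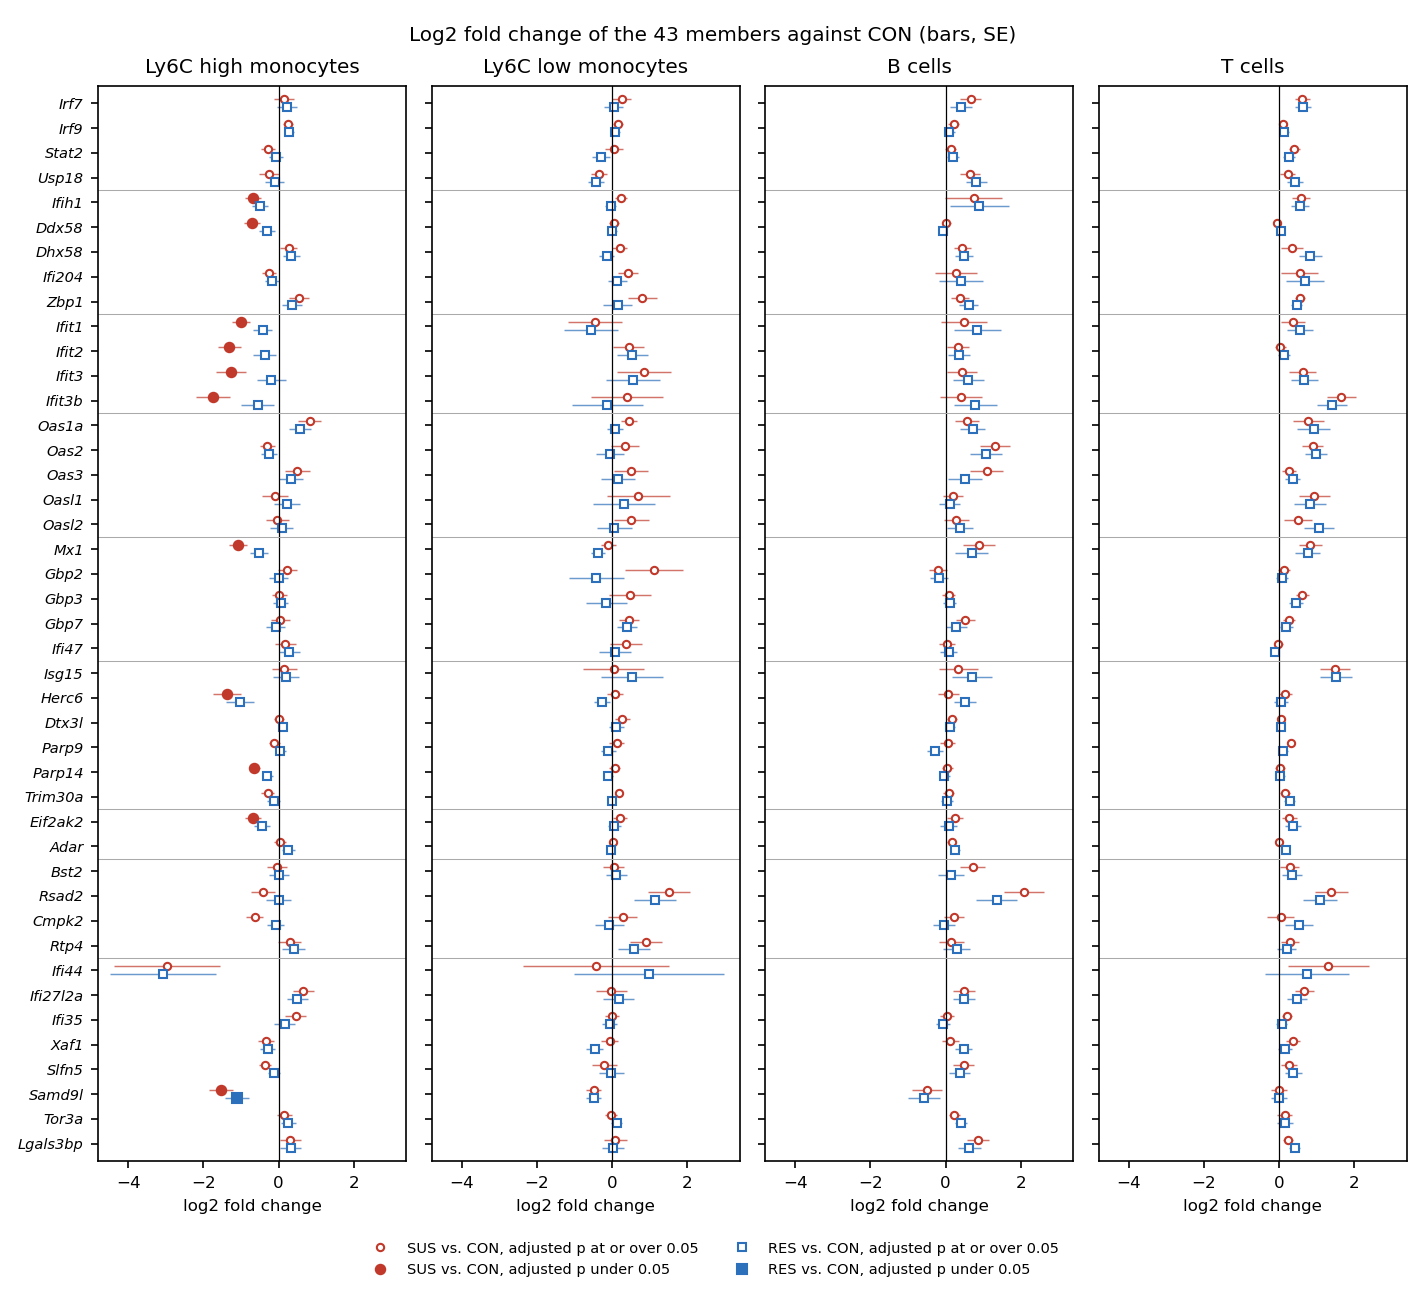
Log2 fold change of each member (y axis, by role) against CON mice (x axis) for SUS (circles) and RES mice (squares) in each of the 4 cell types, with bars for the SE and filled symbols at an adjusted p under 0.05. For SUS mice, the 4 IFIT genes and Mx1 lie below 0 in Ly6C high monocytes, and 40 of 42 members lie above 0 in B cells.

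**Figure D5:**
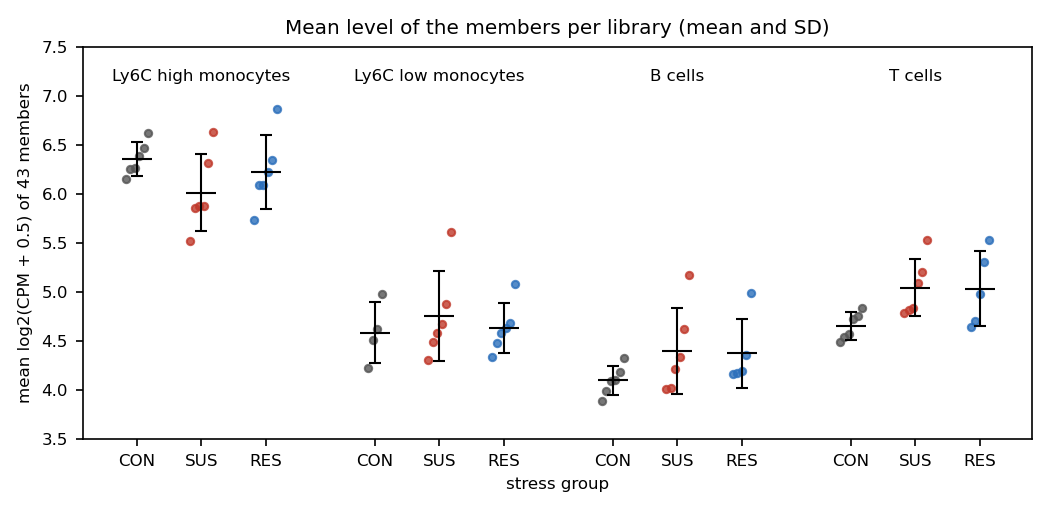
Mean of log2(CPM + 0.5) over the 43 members (y axis) in each library, by cell type and stress group (x axis), with a point per library and bars for the mean and SD. CON means are 6.36 and 4.58 in Ly6C high and Ly6C low monocytes and 4.10 and 4.65 in B and T cells, and the groups overlap in each cell type.

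The mean log2 CPM over the members stood at 4.58 ± 0.31 (SD, n = 4) for CON, 4.76 ± 0.46 for SUS and 4.63 ± 0.25 for RES mice of the Ly6C low monocytes. It was 4.10 ± 0.15, 4.40 ± 0.44 and 4.38 ± 0.35 in B cells and 4.65 ± 0.14, 5.04 ± 0.29 and 5.04 ± 0.38 in T cells. Red cell transcripts moved with the groups in lymphocytes too, with a median of 2780 CPM in CON, 5570 in SUS and 4650 CPM in RES mice in B cells, and 1480, 2380 and 1930 CPM in T cells. With the red cell level as a covariate the median log2 fold change of SUS against CON mice was 0.03 in B cells and 0.14 in T cells.

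Whether the change in Ly6C high monocytes differed from that in other cells was tested as an interaction over all 68 libraries. Against B cells, the log2 fold change was smaller in Ly6C high monocytes for 7 members at an adjusted p under 0.05, against 2.17% of 24248 genes, and larger for 0 by edgeR or DESeq2, against 4.02%. At an unadjusted p under 0.05 it was smaller for 14 and larger for 0, while 21.2% of all genes passed in either direction. They were Mx1 at -1.93 (adjusted p = 0.0147), Rsad2 at -2.48 (0.0181), Ddx58 at -0.70 (0.0288), Ifit2 at -1.61 (0.029), Herc6 at -1.42 (0.0331), Oas2 at -1.57 (0.0414) and Parp14 at -0.66 (0.0489). The count was 3 without CON library 1 or SUS library 8 and 4 without SUS library 2 or CON library 16, and Mx1 and Rsad2 passed in all 12 fits that left out a CON or SUS library of Ly6C high monocytes. Against T cells, 3 members had a smaller change, against 1.02% of all genes, and 0 a larger one by edgeR or DESeq2, against 2.2%, with 15 smaller and 0 larger at an unadjusted p under 0.05, which 18.7% of all genes passed in either direction. They were Mx1 at -1.90 (0.0269), Herc6 at -1.53 (0.0324) and Ifit3b at -3.39 (0.0328). That count ranged from 1 without SUS library 14 to 5 without CON library 13 or SUS library 17. Against Ly6C low monocytes 0 members passed in edgeR, against 0.103% of all genes smaller and 0.26% larger, with 9 smaller and 0 larger at an unadjusted p under 0.05 (14.2% of all genes in either direction) and 2 smaller by DESeq2. The median difference over the members was -0.41 for the Ly6C low comparison, -0.49 for B cells and -0.57 for T cells. In fits of only the 2 cell types compared, 2 members (Mx1 and Rsad2) passed against B cells and 1 (Ifit3b) against T cells. All 3 tests use the same Ly6C high libraries, and none was repeated with the red cell covariate or the offsets for GC content and exon length.

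Upstream of the members, the receptor genes were measured in all cell types. In Ly6C high monocytes the CON, SUS and RES medians were 195.7, 172.1 and 195.85 CPM for Ifnar1 and 109.65, 112.93 and 122.23 CPM for Ifnar2. Of 10 receptor and kinase genes, 1 rose and 1 fell in SUS mice by adjusted p, against 8.78% of all genes higher and 3.84% lower. Jak2, a kinase of several cytokine receptors, fell from a median of 106.4 to 82.33 CPM, by 0.49 ± 0.15 on the log2 scale with an adjusted p of 0.027. Ifnlr1, the receptor of the lambda interferons, had 0 counts in CON libraries against 181 in SUS and 191 in RES libraries, at least 57.3-fold and 62.7-fold higher than a floor of 3 counts over the CON group. Its level was low, with a lowest, median and highest of 0.1205, 0.668 and 1.764 CPM in SUS mice. In RES mice these were 0.0, 0.5149 and 1.843 CPM. The ratios pool the counts of each group and do not measure the spread between libraries.

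Of 13 sensor and adaptor genes tested in Ly6C high monocytes of SUS mice, 2 rose and 0 fell by adjusted p, against 8.78% of all genes higher and 3.84% lower. Myd88, the adaptor of most Toll-like receptors, rose by 1.26 ± 0.24 on the log2 scale with an adjusted p of 0.00206, from 80.18, 107.7 and 118.8 CPM in CON to 153.9, 248.3 and 385.9 CPM in SUS mice. Tmem173, which encodes the DNA adaptor STING, rose by 1.09 ± 0.22 with an adjusted p of 0.00313. Among 6 negative regulators, Socs3, an inhibitor of cytokine receptor kinases, was the sole gene to pass and rose by 2.90 ± 0.41 with an adjusted p of 0.000638, from a median of 35.12 to 232.8 CPM. The same genes rose in RES mice against the same CON libraries, Myd88 by 0.98 (adjusted p = 0.024), Tmem173 by 0.76 (0.0478) and Socs3 by 2.02 (0.014). In SUS mice Socs3 also rose in B cells, by 1.59 with an adjusted p of 0.0483, and in T cells, by 1.72 with an adjusted p of 0.00338.

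A further list of type I response genes, outside the 43, was also counted. Of 60 tested in Ly6C high monocytes of SUS mice, 13 fell and 4 rose by adjusted p, against 3.84% of all genes lower and 8.78% higher. By both criteria 7 fell and 2 rose, against 1.17% and 2.28% of all genes, with a median log2 fold change of -0.28. The smallest adjusted p-values were those of Ifi203, a nuclear DNA-binding protein gene, at -1.34 (0.00176), Ifitm2, which blocks viral entry, at 1.17 (0.00201), Plac8 at 1.21 (0.00217) and Mx2, the paralog of Mx1, at -1.26 (0.00428). Of 15 interferon gamma response genes tested, Gbp9 fell by 1.29 (0.00144) and Tgtp2 by 1.43 (0.0176), and 0 rose. Over all genes, 3.84% were lower and 8.78% higher by adjusted p. Of the 18 type I interferon genes themselves, 6 had any count in Ly6C high monocytes, with 3282 counts over the 18 libraries, of which 3126 were from Ifnk. In T cells of SUS mice Ly6a, an interferon-inducible surface protein gene, rose by 1.20 (0.00338), and in Ly6C low monocytes Epsti1 rose by 0.58 (0.026).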

How the data were processed

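RNA of sorted blood leukocytes was sequenced in 70 libraries. The authors deposited raw read counts per gene, which they made with HISAT2 and HTSeq on mm10, per the labels, and compared with DESeq2. The strand setting and the handling of shared or duplicate reads are not given in the sources used here. Groups and cell types were taken from the labels. Libraries 52 and 70 were left out. Genes were named from GENCODE M21. For each cell type, counts were filtered with filterByExpr, scaled with TMM and fitted with edgeR 4.0.16 in R 4.3.3 (quasi-likelihood F test, robust). A member was called at an adjusted p under 0.05, with and without an absolute log2 fold change above 1. Mean levels used a pseudocount of 0.5 CPM on the log2 scale. The fits were tested on simulated data. Total counts ranged from 19769835 to 67038231 per library. Precision is given as the spread between libraries (SD or SE), and without molecular identifiers duplicate reads cannot be told from separate molecules.

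Full values were given for members called in a stress comparison and for Irf7, Irf9, Stat2 and Usp18. For cell types, the 4 largest called changes in each direction were named, and for other pathway lists at most the 4 smallest adjusted p-values. Genes outside this rule (Ifnar1, Ifnar2, Isg15, Oas1a, Zbp1, Rsad2 and others with values near a threshold) were named after their values were seen. The members and lists were chosen with earlier results of these data known. Alternatives were DESeq2 1.42.0 with its own fit or its size factors, other count filters (none, or at least 10 counts in every library), covariates for red cell transcripts and for mitochondrial share, offsets for GC content with exon length, fits restricted to the compared groups, and leaving out each library. The covariates and offsets were used in the stress comparisons within a cell type only.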

Additional observations from a re-analysis of the deposited data

Results flagged for a closer look

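Single libraries that stood apart from their group on Dixon's test were found for 72 of 516 combinations of member and group (14%), 69 of them as the highest value. The test assumes a normal spread, which CPM need not have, and the members share libraries. The share was therefore not compared with chance. Among the values described above, Ifit3b stood apart at 34.866 CPM in CON library 4 of Ly6C high monocytes. In SUS library 14 of the same cells, Irf7 stood at 651.69 CPM, Usp18 at 51.674 CPM, Oas1a at 261.41 CPM and Isg15 at 43.659 CPM. In RES library 6, Ifih1 stood at 154.69 CPM and Ifit3 at 169.93 CPM. In Ly6C low monocytes, Stat2 stood apart at 130.93 CPM in SUS library 30 and Irf7 at 114.47 CPM in RES library 23. In B cells, Samd9l stood at 837.93 CPM in CON library 38 and Rsad2 at 179.16 CPM in SUS library 48, and in T cells Isg15 stood at 6.0315 CPM in CON library 56. The mean log2 CPM over the members was 4.99 in B cell library 40 of RES mice, above the other 4 libraries of its group. No cause of these values was tested.

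The change of SUS against CON mice differed between cell types by the interaction test over all 68 libraries for 8 members, of which Mx1 and Rsad2 against B cells and Ifit3b against T cells also passed in fits of only the 2 cell types. Log2 fold changes in Ly6C high monocytes minus those in B cells were -1.93 for Mx1, -2.48 for Rsad2, -1.42 for Herc6, -1.57 for Oas2, -0.66 for Parp14, -0.70 for Ddx58 and -1.61 for Ifit2. Minus those in T cells, they were -1.90 for Mx1, -1.53 for Herc6 and -3.39 for Ifit3b. Adjusted p-values are given with the interaction results above, and Rsad2 and Oas2 had not been called within a cell type by edgeR. The interaction tests were not repeated with the covariates or the offsets.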

How the results depend on the processing

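In Ly6C high monocytes of SUS against CON mice, 6 members called by both criteria and 11 by adjusted p alone became 0 and 0 with the red cell covariate and 1 and 2 with the offsets for GC content and exon length, which were chosen after seeing the data. Leaving out 1 library gave 4 to 8 and 7 to 12. For RES against CON mice, the 1 member called by both criteria became 0 without a low-count filter, with the red cell covariate, with the mitochondrial covariate, with the offsets and in a fit of only the 2 groups. By adjusted p alone it became 0 without a filter, with the red cell covariate and with the offsets, and 2 (Oas1a and Mx1) in a fit of only the 2 groups. The RES median lay above the CON median for Oas1a and below it for Mx1. Leaving out 1 library gave 0 to 2 under both rules. In B cells of SUS mice, DESeq2 called 1 member where edgeR called 0. In T cells of SUS mice, DESeq2 called 1 by both criteria and 2 by adjusted p alone, 1 (Zbp1) passed by adjusted p without a filter, and leaving out 1 library gave 0 to 1 under both rules.

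Members with a different change in Ly6C high monocytes against Ly6C low monocytes numbered 0, but 1 with at least 10 counts in every library, 2 with DESeq2, and 0 to 1 with 1 library left out. Against B cells, 7 became 4 without a filter, 2 in a fit of only the 2 cell types, and 3 to 7 with 1 library left out. Against T cells, 3 became 6 with DESeq2 size factors, 1 without a filter, 7 with at least 10 counts in every library, 10 with DESeq2, 1 in a fit of only the 2 cell types, and 1 to 5 with 1 library left out. These leave-one-out fits covered the 12 CON and SUS libraries of Ly6C high monocytes. No member called in a stress or interaction comparison changed sign under any setting tried. Between cell types, the 4 largest called changes in each direction also kept their sign, and the other called members were not checked. For single named members, 39 values fell short of the threshold under other settings and 378 stayed on their side of it. The mean levels moved by less than their SD with other pseudocounts. The causes of these shifts were not tested. No paired analysis was possible because the replicate numbers are library numbers that no groups share. Ifi44 rested on low counts, with a median CON level of 2.0894 CPM in Ly6C high monocytes.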
